A study of Homo sapiens with 2 samples.

Results

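The miRNAs with numbers from 1400 to below 3300 were examined in exosomes from FaDu, an established line of human squamous carcinoma of the hypopharynx. Members were all miRNA names on both arrays with a number in that range, except 1 number that the rule leaves out, which gave 185 of the 2549 miRNAs. Exosomes are small vesicles that cells release, and their RNA was hybridized to one-colour Agilent arrays, 1 array for cells that received the NC plasmid as control (oe-NC) and 1 array for cells given a plasmid for HOTTIP, a long noncoding RNA (oe-HOTTIP). The labels call both agents a plasmid lentivirus, whereas the methods describe transfection of plasmids into FaDu cells. Isolation of exosomes was described for macrophages only, and no passage, clone or harvest time was given for either group. With 1 array per group no test was possible. Errors given for miRNAs are SDs over the repeated spots of an array, pooled within probes. They leave out differences between the probes of a miRNA.

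Titles and treatments of the arrays were followed, but the free-text description of each array names the other group. In the authors' normalized table, the column named for oe-NC ranked the members like the array titled oe-HOTTIP (Spearman's rho 1.00 across 16 miRNAs, against 0.867 across 9 miRNAs with its own array). Of the 22 members detected here, 21 had the opposite sign in that table and 1 stood at its floor in both columns. Every direction below would therefore be turned round if the titles were exchanged. HOTTIP itself has no probe on a miRNA array.

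A miRNA is cut from a hairpin, in which either arm can yield the mature strand, and it guides Argonaute proteins to messenger RNAs through its seed, the bases from position 2 to position 8. Numbers are given in order of discovery. Those in this range come largely from deep sequencing, and many of them lie in introns of protein-coding genes or have little known function.

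Few members gave a signal. The scanner software marked 15 of 185 members as detected on the array labelled oe-NC (8.11%, against 12.9% of all miRNAs). For the array labelled oe-HOTTIP it marked 16 (8.65%, beside 15.3%). Together 22 members (11.9%) were detected on at least 1 array, against 17.9% of all miRNAs. Of these, 9 were seen by both arrays, while 6 appeared for oe-NC alone and 7 for oe-HOTTIP alone. This share stood beside 12.4% of the 145 miRNAs numbered from 3600 to below 4000 and 22.8% of 145 miRNAs from a range of lower numbers, all under 1400. Among the members it was 3 of 28 for numbers below 2000, 4 of 27 for numbers from there to below 3000 and 15 of 130 above.

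Intensities are background-subtracted spot signals in arbitrary units. Undetected members lay between -3.64 and 5.41 on the array labelled oe-NC and between -3.87 and 6.42 on the other one, with medians of -0.996 and -1.04. Negative control spots had a mean of 3.87 ± 2.37 (SD over 976 spots) and 3.45 ± 2.21 (SD over 975 spots). Spots that the scanner software marked as outliers made up 3.65% and 3.19% of the members' spots and were left out, and no spot was saturated.

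Squamous epithelial miRNAs were present in these exosomes. Of 5 markers, miR-205-5p, miR-200c-3p, miR-141-3p and miR-31-5p were detected on both arrays and miR-203a-3p on neither, with summed intensities of 514 and 618. Of 6 blood cell markers, 4 were also detected on both arrays, with summed intensities of 2278 and 2611 carried mostly by miR-451a, while miR-142-3p and miR-142-5p were detected on neither. Their part in the values below was not tested.

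To compare the arrays, signals were scaled to the 90th percentile of the miRNAs that both arrays detected, 279.9 and 439, before log2 was taken. A member detected on 1 array only was given a bound in place of a fold, taken against the dim array's lowest detected signal or the member's own signal there, whichever was higher. At the threshold of 2-fold, 9 members were higher and 6 lower on the array labelled oe-HOTTIP. These were 40.9% and 27.3% of the 22 detected members, beside 33.9% and 25.2% of all 457 miRNAs detected on at least 1 array. Only 3 of the 15 calls came from members measured on both arrays. Without scaling between the arrays the calls were 10 higher and 3 lower, beside 223 and 63 of all miRNAs.

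The mature sequences of the called members are given from RefSeq (GRCh38.p14), because the results turn on them and because some of them are alike in sequence. Capitals mark the seed. RefSeq entries were found for 19 of the 22 detected members, and miR-3148, miR-3149 and miR-3195 are named only. The 6 members that were lower on the array labelled oe-HOTTIP come first.
miR-3162-5p: uUAGGGAGuagaaggguggggag
miR-3180: uGGGGCGGagcuuccggag
miR-3198: gUGGAGUCcuggggaauggaga
miR-3065-3p: uCAGCACCaggauauuguuggag
miR-2116-3p: cCUCCCAUgccaagaacuccc
miR-1539: uCCUGCGCgucccagaugccc
The next 7 were higher on that array.
miR-1915-3p: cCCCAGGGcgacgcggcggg
miR-1587: uUGGGCUGggcuggguuggg
miR-2278: gAGAGCAGuguguguugccugg
miR-2392: uAGGAUGGgggugagaggug
miR-3064-5p: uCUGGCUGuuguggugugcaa
miR-3202: uGGAAGGGagaagagcuuuaau
miR-3196: cGGGGCGGcaggggccuc

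**Figure D1:**
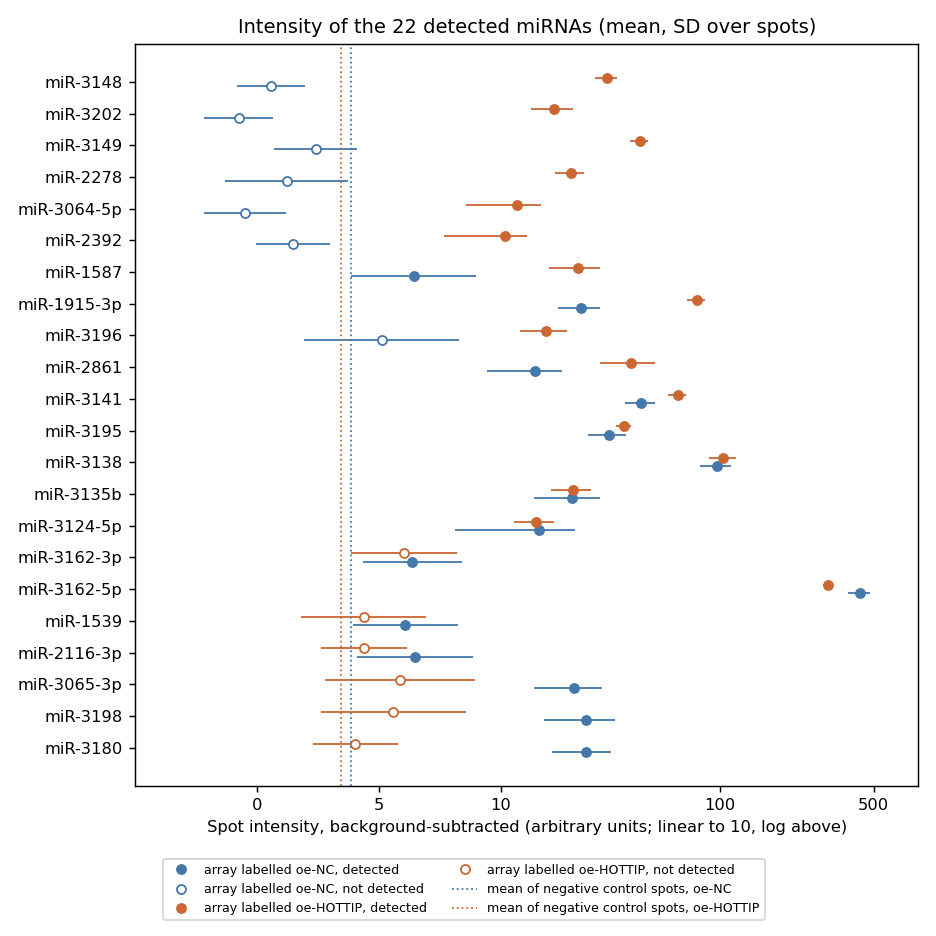
Spot intensity (arbitrary units, linear up to 10 and logarithmic above) of the 22 detected members on each array, ordered by their difference. Points are means, bars are SDs over spots pooled within probes, open points were not detected and dotted lines mark the negative control means of 3.87 and 3.45. miR-3162-5p stands far to the right on both arrays, and 13 members have 1 open point.

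Among the 9 members detected on both arrays, 6 were lower and 3 higher on the array labelled oe-HOTTIP after scaling. Their log2 differences ran from -1.12 to 1.16 with a median of -0.42, and the median of their sizes was 0.70. Over all 261 miRNAs detected on both arrays the median was 0.024, the median size was also 0.70, and the range was -4.04 to 4.24. At least 2-fold was reached by 3 of the 9 (33.3%), beside 39.1% of the 261. Of the 9 differences, 7 were larger than their own spread over spots, and none was past 2-fold by more than that spread. The spread leaves out differences between the probes of a member.

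miR-3162-5p lies at chr11:59595127-59595149 (GRCh38.p14, minus strand) inside OSBP, the gene of oxysterol-binding protein. Its intensity was 431 ± 48.9 (SD over 19 spots) on the oe-NC-labelled array and 311 ± 16.0 (SD over 18 spots) on the oe-HOTTIP-labelled array. It was lower on the second array with and without scaling, with log2 differences of -1.12 (spread 0.18 over spots) and, unscaled, -0.47. Its probes gave -1.11 and -1.14. Besides the unscaled value, quantile normalization (-0.95) and normexp with an offset of 50 (-0.96) also left it under 2-fold.

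miR-1915-3p, reported elsewhere as a regulator of the survival factor BCL2, lies at chr10:21496576-21496595 (minus strand) in its host transcript MIR1915HG. Its intensity was 23.2 ± 4.94 (SD over 20 spots) on the oe-NC-labelled array and 78.2 ± 7.27 (SD over 20 spots) on the other array. The log2 difference of 1.10 had a spread of 0.34, and its probes gave 1.17 and 1.03. It was under 2-fold with scaling to the 90th percentile of all miRNAs (0.93), to the median (0.97) or by quantiles (0.88), and with normexp without (0.82) or with an offset of 50 (0.17).

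miR-1587 lies on the X chromosome at chrX:39837562-39837581 (plus strand) outside the spans of other genes in the table and is known from exosomes of glioma-associated stem cells. On the oe-NC-labelled array its intensity was 6.43 ± 2.57 (SD over 19 spots), below the 22.5 ± 5.88 (SD over 20 spots) of the other array. On the log2 scale this was 1.16, and the spread was 0.69. Its call rested on averaging a pair of probes that disagreed. One probe was at -1.92 and 4.31, below the mean plus 2 SD of the negative controls on both arrays. The other was at 14.8 and 40.7, a log2 difference of 0.81. Taking the brightest probe of every miRNA, with the scaling recomputed on those probes, gave 0.92. The normexp background correction with an offset of 50 gave -0.26.

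miR-2861, first described as a promoter of osteoblast differentiation through HDAC5, was the third member with a positive difference. Its intensity was 14.3 ± 4.82 (SD over 18 spots) on the oe-NC-labelled array, and the other array gave 39.3 ± 10.9 (SD over 20 spots). The log2 difference was 0.81 (spread 0.63), and -0.14 under normexp with an offset of 50. Here too 1 probe stayed at 1.58 and 6.62, while the other read 26.9 and 71.9.

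The remaining 5 members of this set had negative differences after scaling. Before it, all of them except miR-3124-5p were brighter on the array labelled oe-HOTTIP, miR-3138 and miR-3135b only slightly. miR-3138, inside the actin regulator gene WDR1, had intensities of 96.2 ± 15.1 (SD over 19 spots) and 103 ± 14.3 (SD over 20 spots). miR-3141 read 43.6 ± 6.66 (SD over 17 spots) and 63.8 ± 6.08 (SD over 20 spots). miR-3195 read 31.0 ± 6.14 (SD over 20 spots) and 36.3 ± 2.995 (SD over 17 spots). After scaling these differences were -0.55, -0.10 and -0.42, of which that of miR-3141 was within its spread of 0.26.

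miR-3135b and miR-3124-5p had lower signals. miR-3135b read 21.1 ± 7.05 (SD over 18 spots) for oe-NC and 21.3 ± 4.46 (SD over 19 spots) for oe-HOTTIP, and its scaled log2 difference was -0.64 (spread 0.57). miR-3124-5p read 14.98 ± 6.87 (SD over 20 spots) for oe-NC and 14.4 ± 2.94 (SD over 19 spots) for oe-HOTTIP. Its log2 difference of -0.70 was within its spread of 0.72. Except for miR-3124-5p, the signs of these differences rest on the scaling. Unscaled, the median over all miRNAs detected on both arrays was 0.67, and there miR-3135b, miR-3138, miR-3141 and miR-3195 stood at 0.013, 0.099, 0.55 and 0.23, all below that shift.

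**Figure D2:**
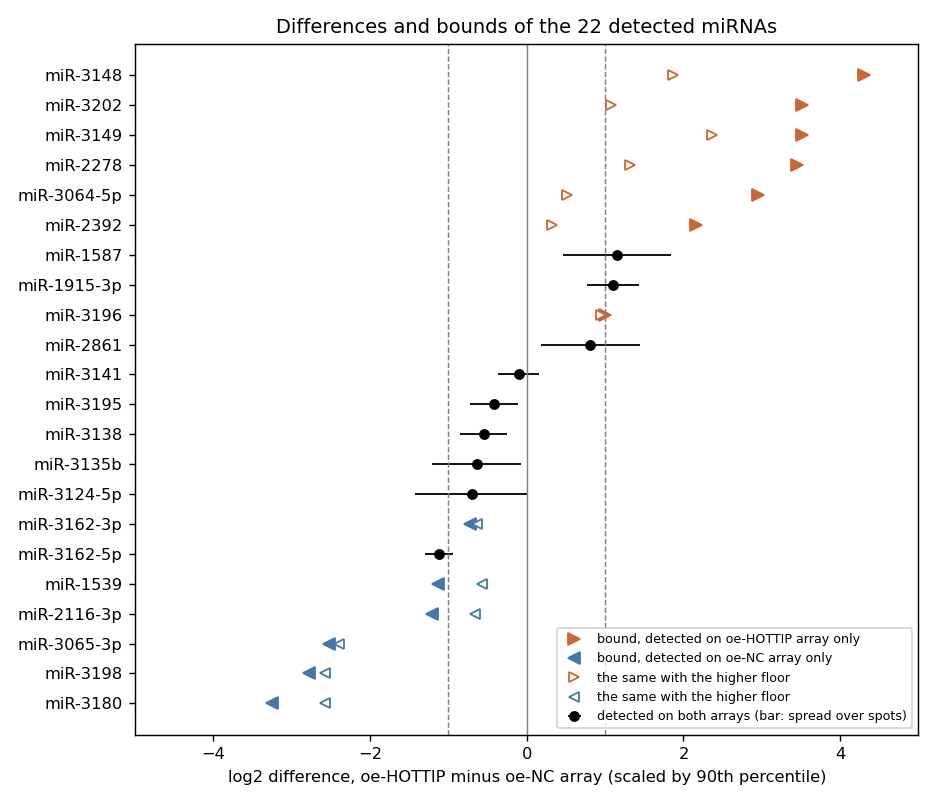
Log2 difference (array labelled oe-HOTTIP minus array labelled oe-NC, scaled by the 90th percentile) of the 22 detected members. Black points with bars are the 9 members detected on both arrays with their spread over spots, filled triangles are bounds of the 13 others, open triangles are the same bounds with the higher floor, and dashed lines mark 2-fold. Bounds past 2-fold fell from 12 to 7 with the higher floor. Over all miRNAs of the array, calls went from 155 higher and 115 lower to 86 and 88 with that floor.

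Bounds depend on the floor of the dim array. The lowest detected signals, 0.976 and 2.43, lay below the negative control means, and these folds are not strict limits. A higher floor, the lowest signal with detection of 50% or more among the 51 miRNAs nearest in rank, stood at 5.32 and 6.44, and each bound is given with both floors.

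On the array labelled oe-NC only, miR-3180, miR-3198 and miR-3065-3p gave the clearest signals. miR-3180, encoded by MIR3180-4 (chr16:15154949-15154967) and MIR3180-5 (chr16:2136076-2136094), both on the minus strand, had 24.4 ± 7.26 (SD over 19 spots) against 4.02 ± 1.74 (SD over 20 spots) on the oe-HOTTIP-labelled array. The bound was 9.53-fold lower, or 5.95-fold with the higher floor. Both probes of miR-3180 were above the negative controls on the first array, at 24.8 and 24.1.

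miR-3198 has copies inside CBX5 (chr12:54231407-54231428, minus strand), the gene of a heterochromatin protein, and inside BID (chr22:17764190-17764211, minus strand), the gene of a pro-apoptotic protein. It read 24.4 ± 8.65 (SD over 20 spots) against 5.59 ± 2.97 (SD over 19 spots), a bound of 6.85-fold lower or 5.94-fold with the higher floor.

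miR-3065-3p lies at chr17:81125926-81125948 (plus strand) inside AATK, where its gene overlaps MIR338 of the opposite strand. Its intensity was 21.6 ± 7.47 (SD over 20 spots) against 5.87 ± 3.08 (SD over 20 spots), a bound of 5.76-fold lower or 5.26-fold with the higher floor. On a list of 10 members encoded antisense to another miRNA gene (both arms of miR-3065, miR-3074, miR-3120, miR-3190 and miR-3191) it was the 1 detected, a share near the 11.9% of all members. The list is far from complete, since miR-3184 overlaps MIR423 and miR-3155a overlaps miR-3155b. The hairpins of miR-3116, miR-3119, miR-3130, miR-3158, miR-3160, miR-3199 and miR-3202 also overlap in pairs on opposite strands.

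The other 3 members of this set were near background on both arrays. miR-2116-3p, inside the myosin gene MYO1E (chr15:59171192-59171212, minus strand), had 6.47 ± 2.37 (SD over 20 spots) against 4.37 ± 1.77 (SD over 20 spots). miR-1539, in the readthrough gene RPL17-C18orf32 (chr18:49487402-49487422, plus strand), had 6.09 ± 2.17 (SD over 19 spots) against 4.37 ± 2.58 (SD over 20 spots). miR-3162-3p, the other arm of the miR-3162 hairpin, had 6.36 ± 2.03 (SD over 20 spots) against 6.02 ± 2.19 (SD over 20 spots).

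In each of these 3 members the ranges of mean ± SD overlapped between the arrays. Their bounds were 2.32-fold, 2.19-fold and 1.66-fold lower. Taking the higher floor, they were 1.58-fold, 1.48-fold and 1.55-fold. No probe of miR-2116-3p or miR-1539 exceeded the mean plus 2 SD of the negative controls, 8.62 and 7.87, on either array.

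On the array labelled oe-HOTTIP only, 7 members were detected. By construction, a bound for such a member can only point in the higher direction. miR-3149 and miR-3148 had the highest intensities in this set with both probes in accord. miR-3149 read 2.40 ± 1.71 (SD over 19 spots) on the oe-NC-labelled array against 42.9 ± 4.05 (SD over 19 spots). Its bound was 11.4-fold higher, or 5.14-fold with the higher floor. miR-3148 read 0.563 ± 1.40 (SD over 19 spots) against 30.3 ± 3.59 (SD over 20 spots), a bound of 19.8-fold higher or 3.64-fold with the higher floor. All spots of both were well above background on the array labelled oe-HOTTIP and none on the other array.

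miR-2278 and miR-3202 were seen by 1 of their 2 probes. miR-2278, inside the aminopeptidase gene AOPEP (chr9:94809977-94809998, plus strand), read 1.21 ± 2.51 (SD over 19 spots) against 20.8 ± 3.17 (SD over 20 spots), with its probes at 5.91 and 35.7 on the array labelled oe-HOTTIP. miR-3202, which has a hairpin on each strand inside TMEM187 (chrX:153981105-153981126 and chrX:153981148-153981169), read -0.761 ± 1.40 (SD over 18 spots) against 17.5 ± 3.75 (SD over 20 spots), with probes at 3.68 and 31.3. Their bounds were 10.9-fold and 11.4-fold higher, or 2.49-fold and 2.10-fold with the higher floor.

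miR-3064-5p lies inside DDX5 (chr17:64500817-64500837, minus strand), the gene of an RNA helicase that works with the miRNA-processing enzyme Drosha. It read -0.482 ± 1.68 (SD over 20 spots) against 11.9 ± 3.32 (SD over 18 spots), and its probes were alike at 12.1 and 11.7. The bound of 7.76-fold higher shrank to 1.42-fold with the higher floor.

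miR-2392 (chr14:100814551-100814570, plus strand) has been linked to mitochondrial transcription in tongue squamous cell carcinoma. It read 1.49 ± 1.52 (SD over 19 spots) against 10.4 ± 2.73 (SD over 19 spots), with probes at 5.53 and 15.3. Its bound was 4.46-fold higher, or 1.25-fold with the higher floor.

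miR-3196, inside BIRC7 (chr20:63238788-63238805, plus strand), the gene of an inhibitor of apoptosis, lay at the threshold itself. It read 5.11 ± 3.18 (SD over 19 spots) against 16.1 ± 3.86 (SD over 20 spots), a bound of 2.004-fold higher that became 1.93-fold with the higher floor.

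The probes were read one by one, because most members had a pair of them. In 13 of the 22 detected members all probes exceeded the mean plus 2 SD of the negative controls on at least 1 array, in 7 only some did, and in 2 none did. The 7 were miR-1587, miR-2278, miR-2392, miR-2861, miR-3124-5p, miR-3162-3p and miR-3202. In miR-3124-5p the probes read -2.86 and 32.8 on the oe-NC-labelled array and -2.59 and 31.5 on the other. Where at least 2 probes of a member had a log2 difference, none differed in sign.

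**Figure D3:**
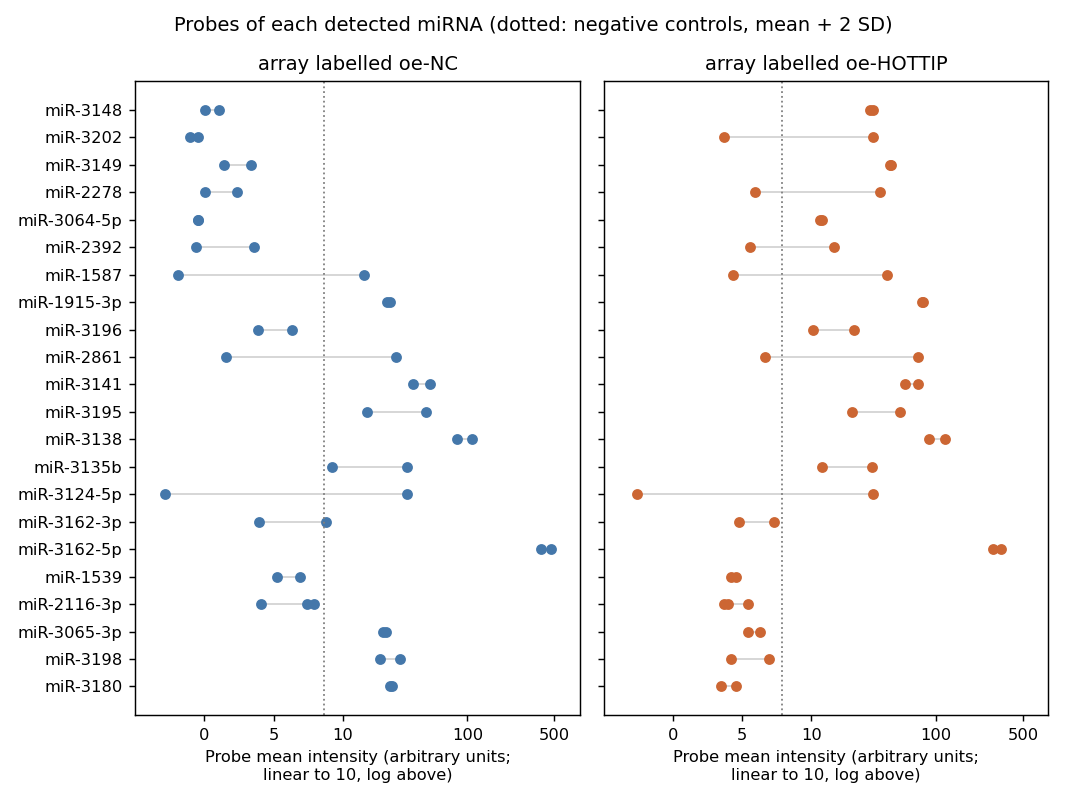
Mean intensity of each probe (points, arbitrary units, linear up to 10 and logarithmic above) of the 22 detected members on each array, with a grey line joining the probes of a member and a dotted line at the mean plus 2 SD of the negative controls (8.62 and 7.87). In 7 members the line crosses the dotted one on at least 1 array with 1 probe staying left of it on both.

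Some members were alike in sequence. The seed GGGGCGG is shared by miR-3180, miR-3180-3p and miR-3196, and miR-3180 is contained whole in miR-3180-3p, with 3 more bases at the end of the longer form.
miR-3180: uGGGGCGGagcuuccggag
miR-3180-3p: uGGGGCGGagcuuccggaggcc
miR-3196: cGGGGCGGcaggggccuc
miR-3180-3p was detected on neither array, at -1.24 and -1.04, while miR-3180 read 24.4 on the array labelled oe-NC. miR-3196, with the same seed, had its signal on the other array. Their values are bounds, and the opposite signs follow from which array detected each member. The bound of miR-3196 was only 2.004-fold, or 1.93-fold with the higher floor.

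The only other seed shared between members was CAGGCUC, in miR-3155a and miR-3155b, of which the shorter lies within the longer and neither was detected.
miR-3155a: cCAGGCUCugcagugggaacu
miR-3155b: cCAGGCUCugcaguggga
Outside the members, miR-4507 shared a run of 15 bases with miR-1587 and was detected on both arrays. Before scaling it read 39.9 for oe-NC and 84.4 for oe-HOTTIP. The unscaled median log2 difference over all miRNAs detected on both arrays was itself 0.67, so no shared change was read from these signals.
miR-4507: cUGGGUUGggcugggcuggg

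Both arms were on the array for 53 of the hairpins. In 6 of these pairs an arm was detected, and in 1 pair, miR-3162, both arms were. There the 5p arm was measured on both arrays and the 3p arm only on the array labelled oe-NC. For miR-3064 and miR-3124 the 5p arm alone was seen, and for miR-1915, miR-2116 and miR-3065 the 3p arm alone. Members named without an arm were detected in 15 of 79 cases (19.0%), 5p arms in 3 of 53 (5.66%) and 3p arms in 4 of 53 (7.55%). The same shares were not taken over all miRNAs of the array, so whether this gap is particular to the members is not known.

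Detected members had more G and C, as did detected miRNAs of the whole array. The median share of G and C was 61.9% in the 19 detected members with a sequence and 54.6% in the 150 undetected ones, beside 60% and 50% over all miRNAs of the array. Under 40%, 0 of 24 members were detected, near the 6.05% of all such miRNAs of the array. With 70% or more, 7 of 28 members were detected (25%), against 42.5% of all such miRNAs. miR-1915-3p and miR-2861, at 90% and 89.5%, had the highest shares of the detected members, and miR-3202, at 40.9%, had the lowest. A run of at least 4 G was found in 6 of the 19 (31.6%) and in 21 of the 150 (14.0%), beside 26.4% of detected and 8.97% of undetected miRNAs of the whole array.

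**Figure D4:**
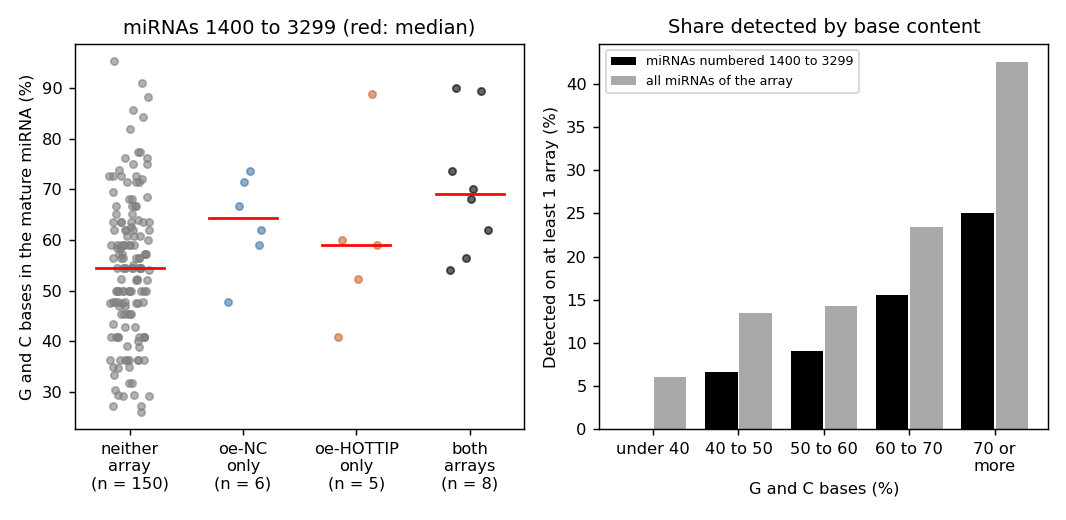
Left, share of G and C (%) in the mature sequence of each member by where it was detected, with red lines at the medians (54.6% for neither array, 64.3%, 59.1% and 69.1% for the others). Right, percentage of miRNAs detected on at least 1 array by share of G and C, for the members in black and for all miRNAs of the array in grey. Both sets of bars rise from left to right, to 25% and 42.5%.

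Of the detected members with a location, 12 of 19 (63.2%) lay inside another annotated gene, beside 132 of the 150 undetected members with a location (88.0%). These shares too were not taken over all miRNAs of the array. The gene table gives spans without exons, so introns and exons were not told apart. More than 1 hairpin encodes 19 members, of which 3 (miR-3180, miR-3198 and miR-3202) were detected, beside 16 of 150 members with 1 hairpin. Over all miRNAs of the array with a sequence, 26 of the 135 with more than 1 hairpin were detected.

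The other 163 members were detected on neither array. The highest intensity among them was 5.41 ± 3.38 (SD over 20 spots) for miR-3180-5p on the oe-NC-labelled array and 6.42 ± 1.76 (SD over 18 spots) for miR-2276-3p on the array labelled oe-HOTTIP, where 5% of its spots were well above background. miR-1908, which lies in the fatty acid desaturase gene FADS1 and is known to repress APOE in melanoma, read -1.32 and -2.34 for its 5p arm and 2.10 and 2.97 for its 3p arm. miR-2909, miR-2110, miR-1976 and miR-3178 were below 0 on both arrays. At these signals their levels could not be told from background, and no difference was read from them.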

How the data were processed

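RNA (200 ng per array, per the labels) was labelled with Cy3. The authors deposited scanner output of Agilent Feature Extraction (version 10.10 per the processing notes, 11.5.1.1 per the file headers) with spot intensity values, a summed intensity per miRNA and flags, and a GeneSpring table of log2 values normalized by the 90th percentile. In the deposited log2 table most values stand at a floor of 1e-06, which is each column's median. Each column ranks miRNAs like the other group's array, and its centring was not traced.

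Outlier spots were dropped. Spots of a probe, then probes of a miRNA, were averaged, with SDs pooled within probes. The spread of a log2 difference combines the relative SDs of both arrays. All 2549 miRNAs were processed together. The averaging, scaling and 2-fold calls were tested on simulated data, with changes planted only in brighter detected miRNAs. The simulation took the same miRNAs as detected on both arrays, so bounds were not tested. Every detected member is named, by rule, and undetected ones by their highest value. Well-known undetected members were picked after their values were seen. Members, lists and alternatives were chosen with earlier results of these data known. Sequences and locations come from RefSeq tables, matched by name (169 of 185 members). Precision is limited by the number of arrays. Averages were made in Python 3.11.15 with pandas 2.3.3 and numpy 2.4.6, normexp in limma 3.58.1 (R 4.3.3), and plots in matplotlib 3.10.9.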

Additional observations from a re-analysis of the deposited data

How the results depend on the processing

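No paired analysis was possible because oe-NC and oe-HOTTIP share no replicate beyond a single array each. Of 14 alternatives, normexp with an offset of 50 left 0 members higher and 0 lower. Over all miRNAs of the array it left 8 higher and 26 lower, against 155 and 115 in the main setting. Without an offset 3 members were higher and 4 lower, beside 53 and 84 of all miRNAs. Without scaling 10 members were higher and 3 lower, beside 223 and 63 of all miRNAs. There the median log2 difference of members detected on both arrays was 0.23. With detection by over 50% of spots well above background, 9 and 10 members were detected on the arrays labelled oe-NC and oe-HOTTIP. Under that rule 2 members were higher and 4 lower, beside 42 and 55 of all miRNAs. With detection also above the negative controls, 3 members were higher and 4 lower, beside 51 and 80 of all miRNAs. With either detection rule, and with normexp without an offset, more were thus lower than higher. The main setting had 9 members higher and 6 lower. In the authors' normalized table, each column ranks miRNAs like the other group's array, as given above. There 5 members were higher and 6 lower, beside 104 and 103 of all miRNAs, and the median was 0.72. There the calls changed sign, to -0.62 (miR-1587), -0.82 (miR-1915-3p), 1.10 (miR-2116-3p), -1.98 (miR-2278), -0.56 (miR-2392), -1.24 (miR-3064-5p), 3.01 (miR-3065-3p), -2.70 (miR-3148), -3.16 (miR-3149), 1.16 (miR-3162-5p), 3.24 (miR-3180), -1.71 (miR-3196), 3.24 (miR-3198) and -1.67 (miR-3202), and miR-1539 was at the floor. Outside the table, 14 of the 15 called members kept their direction in every alternative that gave a value, and 0 stayed past 2-fold in all of them. The direction of the 12 bounds among these calls was fixed beforehand, since a bound that turned the other way was left without a value. Of the 3 called members detected on both arrays, miR-1915-3p and miR-3162-5p kept their direction. miR-1587 did not (-0.26 with normexp and an offset of 50). The cause of these shifts was not tested. Members near the negative controls are limited by signal over background.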

Other observations

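Base content differed between the members seen on only 1 of the arrays. The 6 members detected on the array labelled oe-NC only had a median of 27.1% G and 34.3% C, and the 5 with a sequence detected on the array labelled oe-HOTTIP only had 45.5% G and 13.6% C. Over all miRNAs of the array these medians were 15.8% G and 39.2% C (60 miRNAs) against 44.4% G and 14.3% C (109 miRNAs). The dim members miR-3162-3p, miR-2116-3p and miR-1539 held 0.0%, 9.52% and 23.8% G, whereas miR-3180 and miR-3198, also seen on the array labelled oe-NC only, held 52.6% and 50%. These are descriptions of 1 array per group, and probe sequences were not used here.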
